A study of Homo sapiens with 4 samples.

Results

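The E2F factors, the RB pocket proteins and LIN9 were followed as 10 genes: E2F1, E2F2, E2F3, E2F7, E2F8, TFDP1, RB1, RBL1, RBL2 and LIN9. They were taken by name, as every probe set whose only gene symbol in the array's gene table was one of these 10. That gave 29 probe sets of 49395 on the array, and 10 of the 18132 genes that had a named probe set. The cells were U87MG, an established human glioblastoma line, grown in medium with fetal bovine serum. They were treated for 24 h with 10 µM mycophenolic acid (MPA), with 10 µM MPA together with 100 µM guanosine, with 100 µM guanosine alone, or with DMSO as the control, and the labels name DMSO for the control only. MPA inhibits IMP dehydrogenase, which feeds the synthesis of guanine nucleotides, and guanosine is a nucleoside from which cells can salvage guanine nucleotides. Each condition was 1 Affymetrix PrimeView array of bulk RNA, 4 arrays in all, so no value here has a replicate error and no test was possible.

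E2F factors bind a short GC-rich element in the promoters of genes for DNA replication and cell division. E2F1, E2F2 and E2F3 activate such genes together with a DP partner such as TFDP1, and E2F7 and E2F8 are atypical members that repress them without a DP partner. RB1 and its relatives RBL1 and RBL2 hold E2F factors inactive until cyclin-dependent kinases phosphorylate them. LIN9 is a subunit of the MuvB complex, which represses cell cycle genes together with RBL1 or RBL2 and E2F4, and activates genes of mitosis together with MYBL2 and FOXM1.

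On the array of MPA-treated cells, 8 of the 10 genes had a lower signal than on the control array, and RBL1 and E2F3 were at least 1.5-fold lower. LIN9 passed that line by its measured signals too (3 of 10 genes), but its signal with MPA was below the floor of 63.01, and only a difference of at least 1.32-fold can be read. None (0 of 10) was at least 1.5-fold higher. Over the 10951 genes compared, the share that passed 1.5-fold was 7.52% downward and 5.41% upward by measured signals. With signals below the floor set to it, 2 of the 10 genes and 7.22% of all genes were at least 1.5-fold lower. The median log2 difference of the 10 genes was -0.54 by measured signals and -0.45 with those below the floor set to it, where that of all genes compared was 0.0024. A gene was read at its brightest probe set, leaving aside those ending in _x_at, which can bind several genes. It entered a comparison when the brighter array reached 63.01, the median of all signals, called the floor here. The E2F1 and E2F8 genes were each 1.49-fold lower, just short of the 1.5-fold line, and TFDP1 was 1.42-fold and RB1 1.30-fold lower. E2F7 and RBL2 had differences of 0.02 and 0.09 on the log2 scale. A bulk array cannot tell fewer cells in the phases that make an mRNA from less of that mRNA in each cell.

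**Figure D1:**
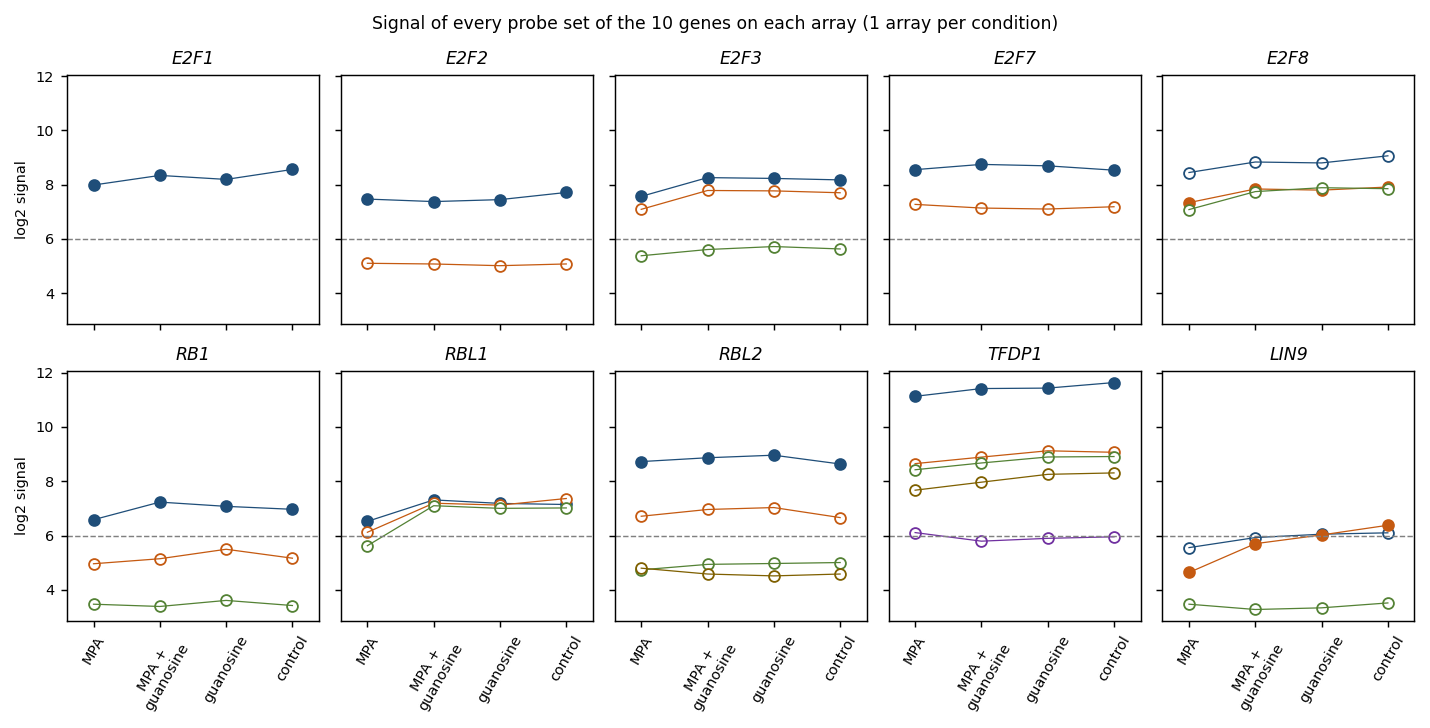
Log2 signal of each of the 29 probe sets (1 colour per probe set, joined by a thin line) on the 4 arrays, with 1 panel per gene. Filled points are the probe set that stands for the gene, open points the others, and the dashed line is the floor of 63.01 in signal; the MPA array is the lowest for most probe sets above the floor, and not for E2F7 or the bright RBL2 probe sets.

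Taken probe set by probe set, 22 of the 29 reached the floor on at least 1 array, 18 of them on all 4 arrays, and 7 on none. Of the 22, 17 were lower with MPA than in the control and 5 were higher. Of the 22, 9 were at least 1.5-fold lower by measured signals, 3 at least 2-fold lower, and 0 at least 1.5-fold higher. With signals below the floor set to it, 8 were at least 1.5-fold lower and 2 at least 2-fold lower. Over all 23675 named probe sets compared, 7.58% were at least 1.5-fold lower, 1.51% at least 2-fold lower and 4.67% at least 1.5-fold higher. The MPA array was the lowest of the 4 arrays for 16 of the 22 probe sets, and the control array was the highest for 10. The order of the arrays was not counted over all named probe sets, so these counts have no share to be set against. Probe sets of 1 gene share its transcripts, so they are not independent readings.

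The promoters of E2F3, RBL1 and LIN9, the 3 genes past 1.5-fold by measured signals, are shown because E2F genes are known as targets of E2F factors, so their own starts can carry the element. The windows run from 250 bases before to 50 bases after an annotated start, on GRCh38.p14 from RefSeq, read 5′ to 3′ on the gene's strand. E2F3 is on the plus strand at chr6:20401629-20401928, RBL1 on the minus strand at chr20:37095948-37096247, and 2 of the 3 LIN9 starts on the minus strand at chr1:226309454-226309753 (start 1) and chr1:226309115-226309414 (start 3). Capitals mark an E2F-type core, a CHR core (the element that MuvB binds) or a CCAAT box, on either strand. Only windows that held such a match are shown, so another annotated start of E2F3 and another of LIN9 are left out. Any of these counted as an E2F-type core: the word TTCCCGC, the word TTCGCGC, the word TTGCCGC and the word TTGGCGC. The CHR core was the word TTTGAA or the word TTTAAA, and the box was CCAAT.
E2F3: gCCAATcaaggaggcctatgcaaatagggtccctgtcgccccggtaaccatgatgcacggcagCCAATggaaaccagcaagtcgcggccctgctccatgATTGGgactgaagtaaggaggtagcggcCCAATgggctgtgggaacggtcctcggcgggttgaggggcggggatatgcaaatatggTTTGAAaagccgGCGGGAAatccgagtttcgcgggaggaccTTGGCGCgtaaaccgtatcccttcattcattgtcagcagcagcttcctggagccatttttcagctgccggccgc
RBL1: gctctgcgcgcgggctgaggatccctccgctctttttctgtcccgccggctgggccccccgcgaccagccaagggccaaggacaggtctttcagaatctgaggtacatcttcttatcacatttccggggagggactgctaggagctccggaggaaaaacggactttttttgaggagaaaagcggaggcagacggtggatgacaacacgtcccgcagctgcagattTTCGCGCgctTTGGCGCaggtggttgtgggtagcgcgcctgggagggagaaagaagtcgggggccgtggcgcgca
LIN9 start 1: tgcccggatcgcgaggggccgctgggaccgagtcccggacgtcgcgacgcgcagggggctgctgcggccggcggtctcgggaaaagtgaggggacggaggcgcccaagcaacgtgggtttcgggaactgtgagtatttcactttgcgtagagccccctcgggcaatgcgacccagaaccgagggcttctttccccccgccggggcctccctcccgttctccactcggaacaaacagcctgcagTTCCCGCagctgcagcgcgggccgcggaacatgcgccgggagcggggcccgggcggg
LIN9 start 3: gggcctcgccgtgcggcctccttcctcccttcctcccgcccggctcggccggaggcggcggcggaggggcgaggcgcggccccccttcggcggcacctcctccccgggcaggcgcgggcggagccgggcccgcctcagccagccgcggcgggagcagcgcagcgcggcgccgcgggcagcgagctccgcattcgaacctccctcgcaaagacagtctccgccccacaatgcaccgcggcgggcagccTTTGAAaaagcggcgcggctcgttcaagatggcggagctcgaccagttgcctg

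Counting the annotated start as 0, the RBL1 window held TTCGCGC from position -25 to -19 and TTGGCGC from -15 to -9. The E2F3 window shown held TTCCCGC on the opposite strand from -53 to -47 and TTGGCGC from -24 to -18. It also held TTTGAA from -65 to -60 and 4 CCAAT boxes. LIN9 start 1 held TTCCCGC from -7 to -1, and start 3 held TTTGAA from -3 to 2. The windows of E2F3 and LIN9 that are not shown held none of the motifs. No 2 motifs overlapped in these windows. RefSeq windows were matched for 9 of the 10 genes, 13 windows in all, and an E2F-type core was found in 7 windows, from 7 of the 9 genes. The 2 genes without one in these windows were RB1 and RBL2. A core was found in 13.0% of all 35116 windows of this length and in 16.1% of the 22198 from protein-coding genes. The median GC content was 61.3% for the 13 windows and 62.3% for the protein-coding ones. CHR cores were in 4 of the 13 windows, against 20.2% of protein-coding ones, and CCAAT boxes in 4 of 13, against 34.7%. The genes with a core did not all differ with MPA: E2F7 held 2 cores and differed by 0.02. A match is a run of letters and not a measured binding site.

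**Figure D2:**
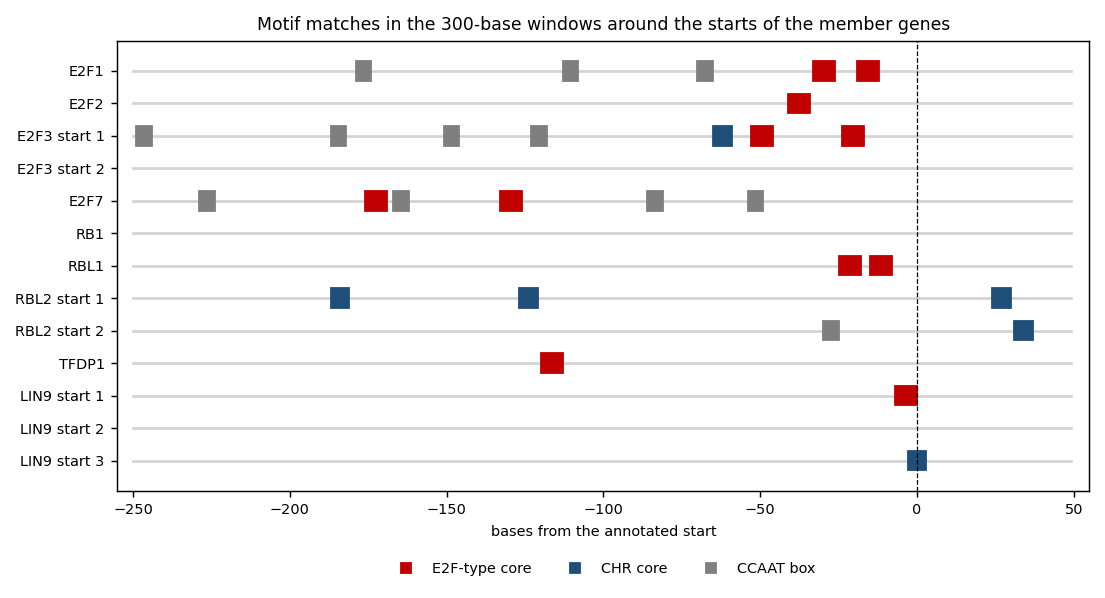
Position of each match in the 13 windows of the 9 matched genes, in bases from the annotated start (dashed line), with E2F-type cores in red, CHR cores in blue and CCAAT boxes in grey. RBL1 and E2F1 each show 2 E2F-type cores just before the start, and the windows of RB1 and RBL2 show none.

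Among the activator E2F genes, E2F1 and E2F3 were lower with MPA, and E2F2 differed less. E2F1, the best-known activator of S phase genes, had a signal of 253 with MPA, 323 with both compounds, 292 with guanosine and 377 in the control, on its single probe set. All 3 treated arrays were below the control array, the MPA array the furthest, at a log2 difference of -0.57. Set against the guanosine array, the MPA difference of E2F1 was -0.21.

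E2F3, another activator of S phase entry, had 189 with MPA, 306 with both, 299 with guanosine and 288 in the control (11742800_s_at). Its next probe set, 11754266_s_at, had 136 with MPA, 220.1 with both, 218 with guanosine and 208 in the control. The MPA array alone stood apart, and the log2 differences from control were -0.61 at both probe sets. Its remaining probe set was below the floor on all arrays, at 41.5 with MPA and 49.4 in the control. With cyclic loess normalisation the E2F3 difference was -0.55, short of 1.5-fold.

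For E2F2, the third activator, the signals were 177 with MPA, 166 with both, 174 with guanosine and 209 in the control. The 3 treated arrays lay close together below the control, with log2 differences from it of -0.24 with MPA, -0.34 with both and -0.26 with guanosine. Its other probe set lay between 32.2 and 34.3 on all arrays, below the floor.

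TFDP1, the DNA-binding partner of the activators, had 2241 with MPA, 2733 with both, 2765 with guanosine and 3185 in the control at its brightest probe set. Of its 5 probe sets, 4 were lower with MPA than in the control, with log2 differences from -0.64 to -0.42. The 1 that was higher, 11761840_at, had signals between 55.4 and 69.0, around the floor. At the other 3 of these 4, both compounds differed from guanosine by -0.23, -0.22 and -0.29, where the brightest probe set gave -0.02.

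The atypical repressors E2F7 and E2F8 differed from each other on the MPA array. E2F8 had 161 with MPA, 229 with both, 222 with guanosine and 240.4 in the control at 11747943_a_at. At 11728957_a_at it had 135 with MPA, 214 with both, 236 with guanosine and 230.4 in the control. At 11728958_x_at it had 348 with MPA, 455 with both, 445 with guanosine and 534 in the control. All 3 were lowest with MPA, by -0.58, -0.77 and -0.62 on the log2 scale, and 2 of the 3 passed 1.5-fold.

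E2F7, which p53 is known to activate in human cells, had 375 with MPA, 429 with both, 413 with guanosine and 369.8 in the control. At its other probe set the signals were 154 with MPA, 141 with both, 137 with guanosine and 145 in the control. The MPA and control arrays differed by 0.02 and 0.09, and the sign of the first turned to -0.02 when each array was centred on its median. The cell cycle inhibitor CDKN1A, a p53 target, had 4961 with MPA, 1412 with both, 1373 with guanosine and 1649 in the control.

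The 3 pocket protein genes gave 3 patterns. RBL1, itself a textbook E2F-regulated gene, was the pocket protein gene most below control. At 11740383_at, its brightest probe set, it had 91.8 with MPA, 159 with both, 145 with guanosine and 141 in the control. At 11740382_at it had 69.5 with MPA, 146 with both, 139 with guanosine and 165 in the control. At 11738630_a_at it had 49.3 with MPA, 137 with both, 128 with guanosine and 129 in the control. On each of these probe sets the MPA array was below the other 3, which lay close together. The log2 differences from control were -0.62, -1.24 and -1.39, so the size differed by probe set, and the value for the median of the 3 was -1.02. The MPA signal of the last was below the floor.

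RB1, the retinoblastoma tumour suppressor, had 95.8 with MPA, 150.2 with both, 135 with guanosine and 125 in the control at its 1 probe set above the floor. The MPA array was the lowest and the array of both compounds the highest. The MPA difference from control was -0.38, inside the range of -0.88 to 0.85 that held 95% of all genes compared. The other 2 RB1 probe sets were below the floor throughout, at 10.4 to 45.0.

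RBL2, the pocket protein that prevails in resting cells, had 423 with MPA, 467 with both, 498 with guanosine and 398 in the control. Its second probe set had 105 with MPA, 124 with both, 131 with guanosine and 101 in the control. At both, the control array was the lowest and the arrays with guanosine the highest, and MPA differed from control by 0.09 and 0.05. Its other 2 probe sets were below the floor, between 22.8 and 32.1.

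LIN9 had the weakest signal of the 10 genes at the probe set that stands for it. At 11728874_a_at it had 24.9 with MPA, 51.9 with both, 64.9 with guanosine and 83.2 in the control. The arrays stood in that order, and the MPA and both-compound signals were below the floor. The measured log2 difference of MPA from control was -1.74, but against the floor LIN9 was only shown to be at least 1.32-fold lower. It therefore has no rank among the 10 genes or among all genes. The probe set 11728875_x_at had 47.0 with MPA, 60.7 with both, 66.2 with guanosine and 68.5 in the control. Here too the MPA and both-compound signals were below the floor, so their order cannot be read with confidence. The measured difference of MPA from control was -0.55, and this became the value of LIN9 when _x_at probe sets were kept. The remaining probe set, 11761662_a_at, lay between 9.67 and 11.4, so the measured value of -1.74 rests on 1 probe set.

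Guanosine alone left all 10 genes within 1.5-fold of the control (0 higher and 0 lower, where 0.366% of 10663 genes were higher and 0.131% lower). The median log2 difference was -0.04. E2F1 was lowest at -0.37 and LIN9 was at -0.36, the 124th and the 138th lowest of all genes compared. The LIN9 value depends on the probe set: at 11728875_x_at, with 66.2 with guanosine and 68.5 in the control, it was -0.05. RBL2 was highest at 0.32, the 374th highest, and its second probe set was at 0.37. In this comparison 95% of all genes lay between -0.30 and 0.36. E2F1 was just past one edge of that range, as was LIN9 at the probe set that stands for it only. RBL2 lay inside the other edge at the probe set that stands for it, and just past that edge at its second probe set.

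With both compounds against the control, 1 of the 10 genes, LIN9, was at least 1.5-fold lower by measured signals and 0 were higher, where 0.169% of 10672 genes were lower and 0.469% higher. The LIN9 signal with both compounds was below the floor, so of its measured log2 difference of -0.68 only a difference of at least 1.32-fold can be read. With signals below the floor set to it, 0 of the 10 genes and 0.122% of all genes were at least 1.5-fold lower. LIN9 had a measured value of -0.18 on its _x_at probe set, where the signal with both compounds, 60.7, was below the floor too. Among the genes above the floor on both arrays E2F2 was lowest at -0.34, and RB1 and RBL2 were highest at 0.27 and 0.23. The median of the 10 was 0.0062. The guanosine and both-compound comparisons share the control array, so their values are not independent.

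Adding guanosine to MPA gave higher signals than MPA alone for 8 of the 9 genes compared, 3 of them at least 1.5-fold: RBL1 (log2 0.79), E2F3 (0.69) and RB1 (0.65). None of the 9 was at least 1.5-fold lower (0 genes). Among 10956 genes, 8.82% passed that line upward and 4.77% downward. Only E2F2 of the 9 was lower, at -0.09. The other RBL1 probe sets differed by 1.07 and 1.48, the latter a measured value with an MPA signal below the floor. LIN9 was below the floor on both arrays at its leading probe set, 51.9 with both and 24.9 with MPA, and was not compared. This comparison shares the MPA array with that of MPA against control.

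With guanosine present, the arrays with and without MPA lay close together for most of these genes, at the probe sets that stand for them. Both compounds against guanosine, which shares no array with MPA against control, had a median of 0.04 over the 10 genes, and 0 were past 1.5-fold in either direction. Of all 10599 genes compared, 0.0189% were at least 1.5-fold lower and 0.0% higher. The values of E2F1 (0.15), E2F3 (0.03), E2F8 (0.04), RB1 (0.16) and RBL1 (0.13) lay inside the range of -0.18 to 0.21 that held 95% of all genes. TFDP1 was inside it at its brightest probe set (-0.02). It was below that range at 11725347_a_at (-0.23), 11725348_x_at (-0.22) and 11748055_x_at (-0.29). LIN9 had a measured value of -0.32, but its signal with both compounds was below the floor, and the bound was -0.04.

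The MPA difference with guanosine present minus that without it uses each of the 4 arrays once. It was 0.75 for RBL1, 0.72 for E2F1, 0.64 for E2F3, 0.62 for E2F8, 0.54 for RB1 and 0.49 for TFDP1. It was smaller for E2F2 (0.17), E2F7 (0.03) and RBL2 (-0.18). These values are for the probe set that stands for each gene. The other TFDP1 probe sets gave 0.18, 0.27 and 0.35, and -0.26 at 11761840_at, whose signals lay around the floor. The other RBL1 probe sets gave 1.31 and 1.49, the latter with an MPA signal below the floor. E2F3 gave 0.63 at 11754266_s_at, and the other E2F8 probe sets gave 0.65 and 0.63. LIN9 has no such value, since 2 of its signals were below the floor. With 1 array per condition these values have no error and no test.

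**Figure D3:**
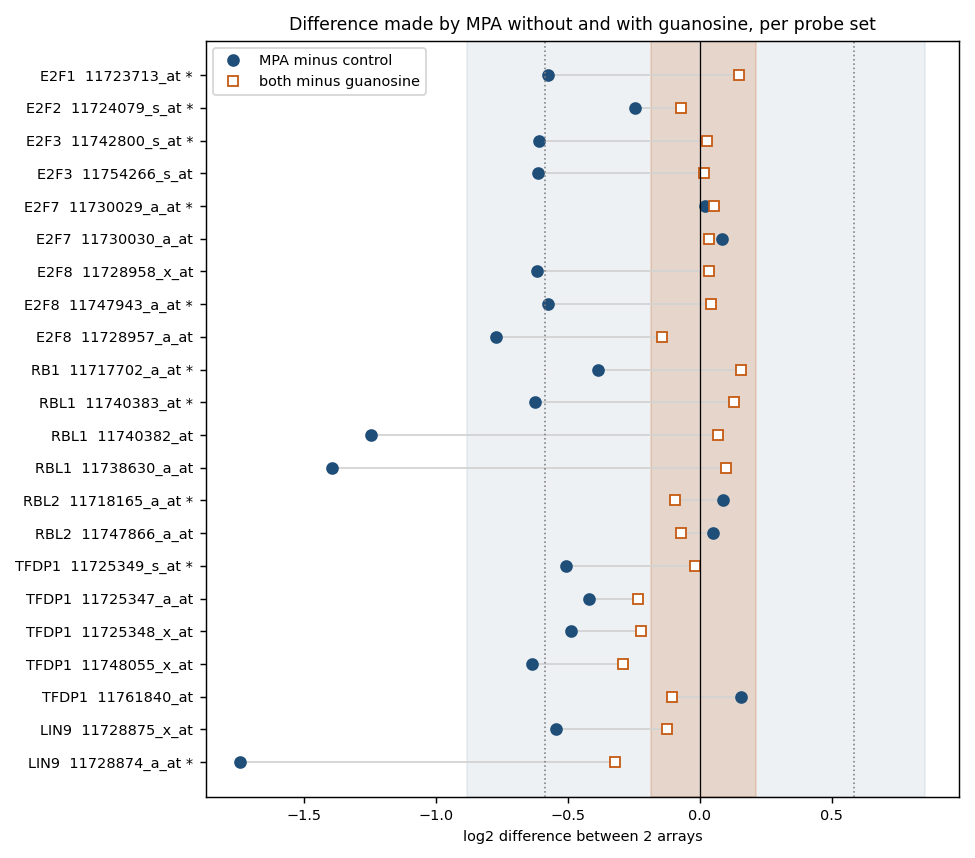
Log2 difference of MPA from control (filled circles) and of both compounds from guanosine (open squares) for the 22 probe sets that reached the floor on an array, with an asterisk at the probe set that stands for the gene. The wide blue band holds 95% of all genes for MPA minus control, the narrow orange band 95% for both minus guanosine, and dotted lines mark 1.5-fold. The circles of RBL1, E2F1, E2F3, E2F8 and RB1 lie well left of their squares, while those of E2F2, E2F7 and RBL2 lie near them. The TFDP1 circle lies well left at the asterisked probe set, and less so or to the right at the others. The circles of LIN9 lie to the left too, but its MPA signals are below the floor. These signals are 24.9 for the asterisked probe set and 47.0 for the other.

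The other genes of the E2F family were read from a list of 5, of which 4 reached the floor. E2F5, a mainly repressive member, had 149 with MPA and 275 in the control (log2 -0.88). E2F6, which represses without RB, had 58.1 with MPA, below the floor, and 101 in the control (-0.80). At 11746243_x_at it had 199.5 with MPA and 253 in the control. E2F4, the E2F of the MuvB repressor, had 351 with MPA and 525 in the control (-0.58), and TFDP2, the other DP partner, 232 with MPA and 199 in the control (0.22). So 2 of the 4 were at least 1.5-fold lower and 0 higher, with a median of -0.69.

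The partners of LIN9 in the MuvB complex and its activators were read from a list of 7. Of these 0 passed 1.5-fold with MPA, and all 7 were lower, with a median of -0.35. The histone-binding subunit RBBP4 was lowest of those above the floor on both arrays, at -0.43. The DNA-binding MuvB subunit LIN54 had a measured value of -0.51 at 11740773_s_at, with an MPA signal of 53.4, below the floor. At that probe set only a difference of at least 1.21-fold can be read. At 11743899_x_at and 11752168_x_at, above the floor on all arrays, LIN54 differed by only -0.08 and -0.15. LIN37 was at -0.25 (-0.03 at its other probe set) and LIN52 highest at -0.03 (-0.31 at its brighter probe set 11734749_x_at). FOXM1, the forkhead activator of mitotic genes, was at -0.38 (-0.01 at its second brightest probe set), and MYBL2 at -0.35. In guanosine against control FOXM1 was at -0.34 and MYBL2 at -0.22.

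Of the genes that set RB phosphorylation, 11 of 15 with values reached the floor, and with MPA 5 were at least 1.5-fold lower and 1 higher. The cyclin E genes, whose products activate CDK2, were lowest: CCNE2 had 114 with MPA and 441 in the control (-1.96), and CCNE1 198 with MPA and 449 in the control (-1.18). CDK2 followed at -0.96 and the S phase cyclin gene CCNA2 at -0.90. The fifth was CDKN2D, an inhibitor of CDK4 and CDK6, at -0.64. CDKN1A was highest at 1.59. The kinases that phosphorylate RB first, CDK4 and CDK6, were at -0.13 and -0.09, and cyclin gene CCND1 was at -0.56. CDKN2A, an inhibitor of these kinases that is known to be deleted in U87MG, lay between 43.0 and 53.0 on the 4 arrays at its brightest probe set, below the floor.

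In MPA against control, the target genes of E2F and of MuvB had lower medians than the 10 genes themselves. Of 27 textbook E2F target genes, 27 were lower, 19 at least 1.5-fold and 13 at least 2-fold, with a median of -0.98. Of all genes compared, 1.42% were at least 2-fold lower. CCNE2, the DNA methylation factor gene UHRF1 (-1.81) and the histone chaperone gene CHAF1A (-1.73) were lowest, and PCNA, the sliding clamp of DNA polymerase, was highest at -0.03. All 20 textbook target genes of MuvB with MYBL2 and FOXM1 were lower, and 13 passed 1.5-fold. Their median was -0.76. The checkpoint kinase gene BUB1B (-1.33), KIF23 (-1.17) and CCNB1 (-1.14) were lowest and CDK1 highest at -0.13.

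In guanosine against control these medians were -0.19 for the E2F targets, with 0 of 27 past 1.5-fold, and -0.42 for the mitotic targets, with 2 of 20 at least 1.5-fold lower. With both compounds against the control they were -0.19 and -0.39, with 0 of 27 and 4 of 20 at least 1.5-fold lower. In each of these comparisons all 20 mitotic targets and 25 of the 27 E2F targets were below the control. In both compounds against MPA the medians were 0.72 for the E2F targets and 0.31 for the mitotic targets. That of the 9 compared of the 10 genes was 0.35. In both compounds against guanosine the medians were -0.01 for each list. Both lists hold CDK1, and the E2F list holds MYBL2, CCNE1, CCNE2 and CCNA2, which are counted above too.

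RB corepressors and modifiers had a median of -0.32 over 10 genes with 0 past 1.5-fold. DNMT1 was lowest at -0.57, followed by the deacetylase gene HDAC2 at -0.53, and the histone demethylase gene KDM5A was highest at 0.16. Among 6 genes for ubiquitin ligase components and regulators that bear on E2F factors, 2 were at least 1.5-fold lower by measured signals and 1 with signals below the floor set to it. The 1 was FBXO5, an inhibitor of the anaphase-promoting complex, at -0.97. SKP2, which targets the CDK inhibitor CDKN1B for degradation, had a measured value of -1.53 with an MPA signal of only 30.2, and set against the floor was at least 1.38-fold lower. DDB1, a ligase adaptor, was highest at 0.37.

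**Figure D4:**
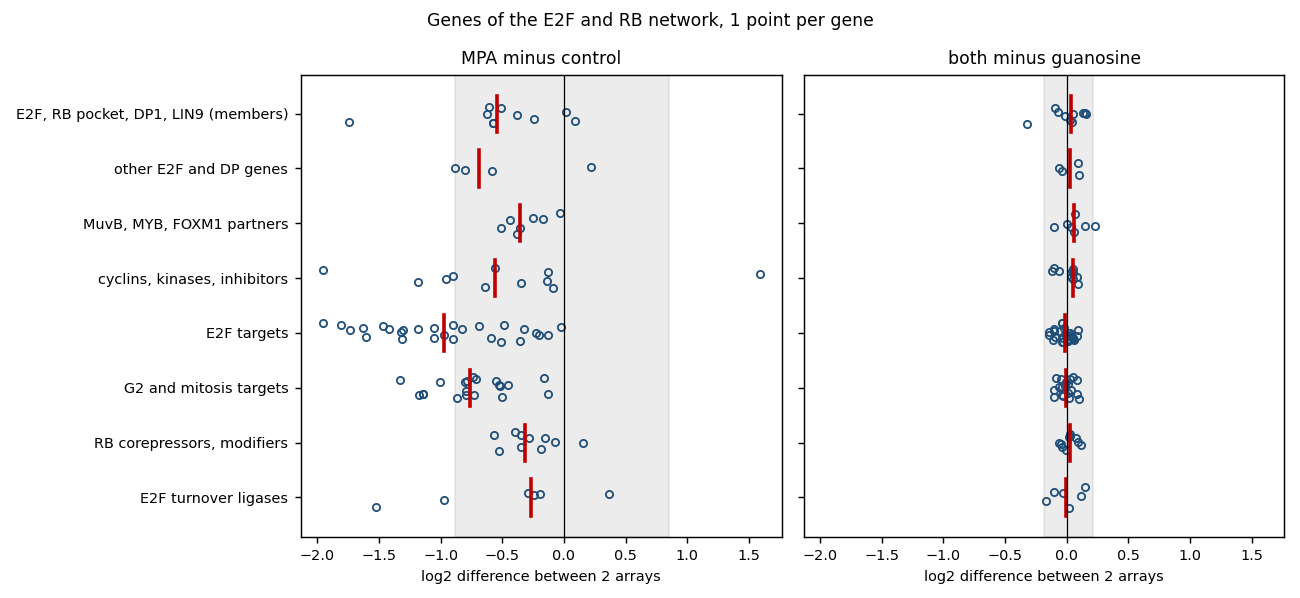
Log2 difference of each gene (open points) of the 10 genes and of 7 related lists, for MPA minus control on the left and both compounds minus guanosine on the right, with list medians as red bars. The grey band holds 95% of all genes compared; the E2F targets have the lowest median on the left (-0.98), and all medians on the right lie near 0.

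For E2F3 and RBL1, the genes most alike were sought among 11009 others that reached the floor somewhere. Likeness was the Euclidean distance between the 3 log2 differences from control, over the 4 arrays. For E2F3 these were NEDD1, TFCP2 and DOT1L, at distances of 0.019, 0.019 and 0.025. For RBL1 they were TRMT6, MRM2 and PLEKHJ1, at 0.029, 0.031 and 0.032. These distances are below 0.098, the SD over genes of both compounds against guanosine. With 1 array per condition, which genes come first is therefore uncertain. The RBL1 search used 11740383_at, at -0.62 with MPA. The other RBL1 probe sets were at -1.24 and -1.39, the latter with an MPA signal below the floor. None is given for LIN9, whose signals were below the floor on 2 of the arrays.

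The 4 arrays had median signals between 61.8 with both compounds and 64.5 with MPA. The cells' label was read against markers. The mesenchymal and glial genes VIM (18322 to 20015) and CD44 (5811 to 6286) were bright, GFAP had 99.6 with MPA and 87.8 in the control, and SOX2 was below the floor. The defining markers PTPRC and CD3E of leukocytes, PECAM1 and CDH5 of endothelium, and CDH1 of epithelium were below the floor on all 4 arrays. Other markers of these lists were above it: VWF (80.1 to 111) and KDR (95.4 to 126) of endothelium on all 4 arrays, and EPCAM of epithelium with MPA (102), against 55.5 in the control. KRT8 and KRT18 of epithelium lay around it, between 57.3 and 78.6. The summed signal of the 5 leukocyte markers was 1962 with MPA and 1287 in the control, nearly all of it CD68, and that of the 5 neuron and oligodendrocyte markers was 2109 with MPA and 1364 in the control, mostly SNAP25. The 5 epithelial markers summed to 294 with MPA and 256 in the control, and the 4 endothelial ones to 239 with MPA and 238 in the control. The part of these shifts in the results was not tested. The 3′ minus 5′ log2 value of the ACTB control probe sets was 1.72 with MPA, 1.89 with both, 1.77 with guanosine and 1.82 in the control.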

How the data were processed

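Total RNA of U87MG cells was read on 1 PrimeView array per condition. The authors deposited 1 intensity value per probe set, an RMA signal per the labels, on the linear scale as the values show. The sources used here do not give the software of that step, its version or its settings. RMA makes the arrays' distributions alike, so a change in total mRNA per cell would not be seen.

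From there, log2 was taken of each deposited intensity. Of 49395 probe sets, 102 are controls and 44988 have 1 gene symbol. A gene is its brightest probe set by mean log2, with _x_at probe sets used only where it has no other, and the floor is the median of all non-control values (63.01). A gene was counted at 1.5-fold, also at 2-fold, in 5 comparisons. The counting was tested on simulated data. No p-value is given, and precision is limited by having 4 arrays.

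All 10 genes and every probe set are named, and from each of 7 lists the highest and lowest members by MPA minus control and up to 2 more of each, plus CDKN1A, MYBL2, FOXM1, E2F4, CCNE2 and CDK2. CCNA2, CCND1, CDKN2A, CDKN2D, VWF, KDR, EPCAM, KRT8 and KRT18 fall outside that rule and were added after their values were seen. The members and lists were chosen with earlier results of these data known. Some list genes were not analysed here. Promoter windows are from RefSeq (GRCh38.p14). The alternatives were 2 floors, the median over probe sets of a gene, _x_at probe sets kept, signals below the floor set to it (added after seeing the data), cyclic loess (limma 3.58.1, 3 iterations), centring on array medians, and the guanosine array as control. Python 3.11.15, pandas 2.3.3 and R 4.3.3 were used.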

Additional observations from a re-analysis of the deposited data

Results flagged for a closer look

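E2F3 and RBL1 were at least 1.5-fold lower with MPA than in the control. With guanosine present, the arrays with and without MPA lay close together for both genes. E2F3 differed by -0.61 between MPA and control and by 0.030 between both compounds and guanosine. RBL1 differed by -0.62 and by 0.13 in the same comparisons. The difference between the effects was not tested, since each condition has 1 array, and the values with guanosine present are small.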

How the results depend on the processing

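The median over those of the 10 genes that were compared for MPA against control kept its sign in all 8 alternatives, one of them, signals below the floor set to it, chosen after seeing the data, and was -0.38 when MPA was set against the guanosine array. The number of genes at least 1.5-fold lower with MPA was 3 by measured signals, and became 2 with signals below the floor set to it, as LIN9 fell short, 2 with cyclic loess, as E2F3 fell short, and 5 with arrays centred on their medians, as E2F1 and E2F8 crossed the line. It became 1 (E2F3) with the floor at the 75th percentile, where only 5 of the genes were compared. With that floor the number at least 1.5-fold higher in both compounds against MPA became 1, against 3. In both compounds against control the 1 gene at least 1.5-fold lower, LIN9, was lost (0 genes) with that floor, with the median over probe sets of a gene, with _x_at probe sets kept, and with signals below the floor set to it. In MPA against control with _x_at probe sets kept, LIN9 was at -0.55, against -1.74, and lost its place among the 3 genes while E2F8, at -0.62, gained one. RBL1 was at -1.02 with the median of its probe sets. Of 317 values of single genes under the alternatives, 285 moved by less than 0.098, the SD over genes of both compounds against guanosine, 32 moved by more, and 0 of those past 1.5-fold changed sign. Signals below the floor, as for LIN9 with MPA, cannot be ordered with confidence. No paired analysis was possible because each condition has 1 array.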
